A study of Homo sapiens with 29 samples.

Results

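The 45 genes described here are interferon-stimulated genes, the genes that cells switch on when interferon or viral nucleic acid is sensed. They were chosen by symbol from a list of 52, a list drawn up with earlier results of these data known. Of 13492 genes in the authors' table, 45 carried a listed symbol. The other 7 symbols, ISG20, MX2, IRF7, SAMD9L, SP100, SP110 and XAF1, are not analysed here. PolyA RNA was sequenced in 29 libraries from xenograft tumors, grown in mice from the human colorectal adenocarcinoma line COLO320DM. The series concerns a helicon peptide directed at β-catenin and its partner TCF, the factors that carry Wnt signals to DNA. All libraries were labelled 48 h. The tumors had received Helicon4 at 100 mpk (5 libraries), Helicon4 at 30 mpk (6 libraries), Helicon4neg at 30 mpk (8 libraries) or vehicle (10 libraries), where mpk is the dose unit of the labels. The labels describe neither compound's structure. A single cell line limits the model, and replicate numbers are the only sign that libraries of a group came from separate animals, so the p-values below measure the spread between these libraries, which may in part be technical.

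In the textbook pathway, type I interferon binds a receptor made of IFNAR1 and IFNAR2. The kinases JAK1 and TYK2 then phosphorylate STAT proteins, among them STAT2, which joins IRF9 in a complex that binds a DNA motif, the interferon-stimulated response element (ISRE), in the promoters of the genes studied here. Type II interferon acts through a receptor of its own and leads to binding at another motif, the gamma-activated site (GAS). The products sense or edit foreign RNA, degrade it, block viral entry or budding, and tag proteins with ISG15, and most are made by epithelial cells as well as by leukocytes.

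The promoters of 6 members are shown because they carry the ISRE core and because these genes behaved differently: IFI44L, IFIT1, IFIT3 and BST2 were higher with Helicon4, ISG15 did not pass the test against vehicle at either dose, and EPSTI1 was lower. Each is the stretch of 170 bases before the transcription start, from RefSeq on GRCh38.p14, read 5′ to 3′ on the gene's strand. Capitals mark the ISRE core, which is GAAA, any 2 bases and GAAA, or on the other strand TTTC, any 2 bases and TTTC. IFI44L is at chr1:78620278-78620447 (plus strand), IFIT1 at chr10:89392453-89392622 (plus), IFIT3 at chr10:89327827-89327996 (plus), BST2 at chr19:17405631-17405800 (minus), ISG15 at chr1:1013327-1013496 (plus) and EPSTI1 at chr13:42992242-42992411 (minus). RefSeq start sites can differ from those of GENCODE, which gives the gene positions below.
IFI44L: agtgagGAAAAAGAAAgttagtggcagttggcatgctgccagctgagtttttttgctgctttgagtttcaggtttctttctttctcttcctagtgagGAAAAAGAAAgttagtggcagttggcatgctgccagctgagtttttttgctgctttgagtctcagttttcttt
IFIT1: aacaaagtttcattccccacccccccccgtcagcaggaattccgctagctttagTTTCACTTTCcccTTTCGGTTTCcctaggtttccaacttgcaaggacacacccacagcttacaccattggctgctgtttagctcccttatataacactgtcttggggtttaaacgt
IFIT3: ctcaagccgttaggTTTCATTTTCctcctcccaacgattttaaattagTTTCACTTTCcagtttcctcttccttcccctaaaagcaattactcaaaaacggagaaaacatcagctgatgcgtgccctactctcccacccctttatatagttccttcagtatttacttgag
BST2: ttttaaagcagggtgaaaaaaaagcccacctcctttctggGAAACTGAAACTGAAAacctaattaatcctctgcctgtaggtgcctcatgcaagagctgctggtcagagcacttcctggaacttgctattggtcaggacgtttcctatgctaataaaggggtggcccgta
ISG15: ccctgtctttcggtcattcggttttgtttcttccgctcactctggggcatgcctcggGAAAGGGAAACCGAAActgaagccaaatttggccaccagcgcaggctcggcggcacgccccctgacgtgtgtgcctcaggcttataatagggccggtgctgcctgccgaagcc
EPSTI1: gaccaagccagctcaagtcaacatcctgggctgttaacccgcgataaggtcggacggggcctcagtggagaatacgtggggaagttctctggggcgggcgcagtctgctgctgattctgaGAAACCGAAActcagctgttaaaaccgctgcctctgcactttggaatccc

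RefSeq promoter windows of 300 bases, 250 before the start and 50 after it, were found for 37 of the 45 genes. The ISRE core was in 23 of the 37 windows (62.2%), against 3.57% of all 35116 windows. By the test at 100 mpk against vehicle described below, it was in 14 of 24 members that were higher, in 8 of 12 that did not pass, and in the 1 window of a member that was lower, that of EPSTI1. The GAS motif TTCNNNGAA was in 9 of 37 windows (24.3%), against 7.66% of all windows. The TCF/LEF motif ATCAAAG, searched on both strands with its reverse complement CTTTGAT, was in 0 of 37 windows, against 2.62% of all. BST2 and ISG15 each held a pair of ISRE matches that overlap by 4 bases. These matches describe letters in the windows and not binding.

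Values are CPM, read counts relative to library size on the authors' scaling, and whole reads recovered from them numbered 26.8 to 61.6 M per library over the genes of the table. A fold change is the difference between group means on the log2(CPM + 1) scale, given with its standard error, and it understates the change of a scarce gene. A gene passed where its p-value from limma, adjusted by Benjamini-Hochberg over 13373 genes, was under 0.05. Of the tumor markers, MYC averaged 5161 ± 749 CPM at 100 mpk and 5244 ± 845 CPM in vehicle (SD, n = 5 and 10), and EPCAM averaged 32.7 ± 3.81 and 27.9 ± 6.18 CPM. CDX2, an intestinal transcription factor, fell by 0.59 on the log2 scale (adjusted p = 0.000645), with 2087 ± 409 CPM at 100 mpk and 3135 ± 568.3 CPM in vehicle. Of the 8 tumor markers listed, 6 were in the table. At 100 mpk against vehicle 1 of these was higher and 1, CDX2, was lower, with a median of 0.05. Of all genes tested, 14.3% rose and 15.9% fell there. CDH1 and VIL1 are not analysed here. Of 15 leukocyte markers, 6 were in the table (PTPRC, CSF1R, ITGAM, CD74, CTSS and IL3RA), and CD68, CD14, LYZ, TYROBP, FCER1G, CD3E, LAPTM5, AIF1 and IRF8 are not analysed here. The CPM summed over those 6 ran from 28.4 to 40.0 at 100 mpk, 27.4 to 38.01 at 30 mpk, 18.8 to 44.1 with Helicon4neg and 28.9 to 46.6 in vehicle, so the groups overlapped. Since a mouse genome is not named in the labels, host transcripts could be included in the values of human genes.

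Against vehicle, 29 of the 45 genes rose with Helicon4 at 100 mpk, 2 fell (EPSTI1 and LY6E) and 14 did not pass. In the same comparison 14.3% of all genes tested rose and 15.9% fell. The median log2 fold change of the 45 was 0.57, beside 0.01 over all genes. In 10 of the genes that rose and in 1 that fell the libraries at 100 mpk did not overlap with the vehicle libraries, which held for 4.67% of all genes upward and 4.13% downward. At 30 mpk against the same vehicle libraries, 20 genes rose, 1 fell (EPSTI1) and 24 did not pass, beside 5.86% of all genes upward and 5.22% downward, with a median of 0.38. The 30 mpk and vehicle libraries did not overlap for 4 genes upward and 1 downward, beside 1.96% and 2.39% of all genes. With Helicon4neg against vehicle 0 rose, 3 fell (SAMD9, TRIM21 and IFIT1) and 42 did not pass, beside 2.21% of all genes upward and 2.62% downward, with a median of -0.17. Less RNA per cell and fewer cells of a type cannot be told apart in these bulk samples, nor can their opposites.

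**Figure D1:**
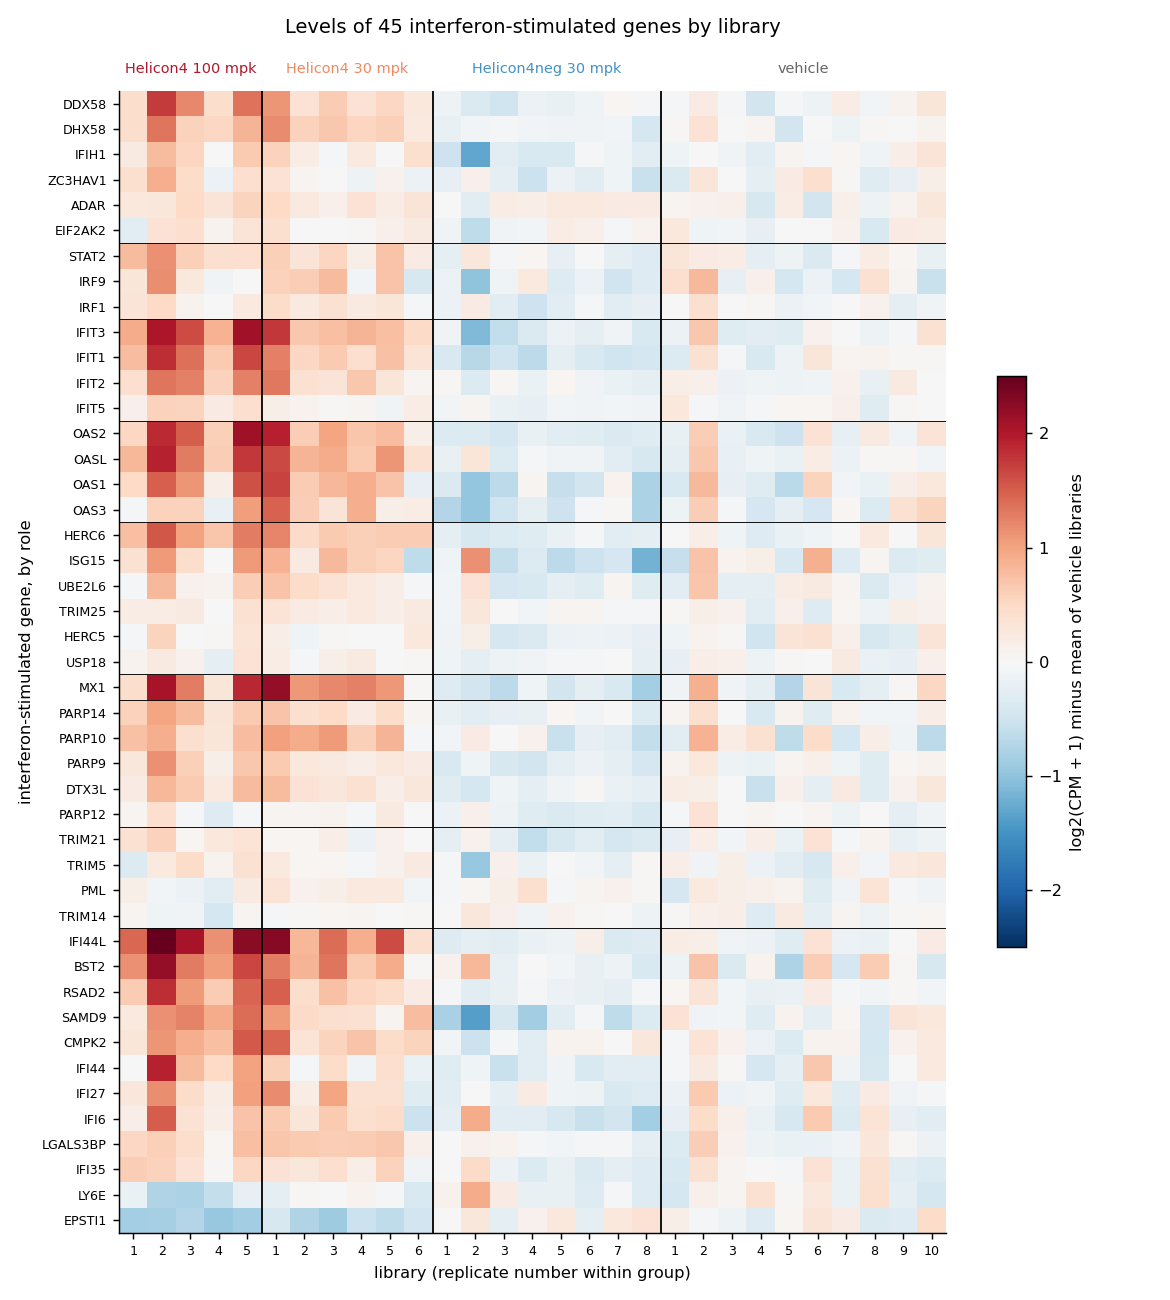
Level of each of the 45 genes (rows, grouped by role) in each of the 29 libraries (columns, grouped by treatment), as log2(CPM + 1) minus the mean of the 10 vehicle libraries. Red cells gather in the Helicon4 columns, most in libraries 2 and 5 of 100 mpk and library 1 of 30 mpk, EPSTI1 is blue in all 11 of them, and the Helicon4neg columns are pale or blue for most genes.

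All 45 passed the filter of at least 1 CPM in at least 5 libraries, but IFIT2, OAS2, OASL, IFI44L, IFI27 and RSAD2 passed it only through Helicon4 libraries and so had to be higher there. IFIT2, IFI44L and RSAD2 are among the 10 genes above whose 100 mpk libraries did not overlap upward with vehicle. IFI44L is also among the 4 at 30 mpk. Among the 39 that reached 1 CPM in 5 or more vehicle libraries, 23 rose and 2 fell at 100 mpk, and 15 rose and 1 fell at 30 mpk. Among the 31 with a mean of at least 5 CPM over all libraries, 18 rose and 1 fell at 100 mpk, with a median of 0.42, and 10 rose and 0 fell at 30 mpk, with a median of 0.29.

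Libraries of a group differed in how high the whole set stood. The mean of log2(CPM + 1) over the 45 genes ran from 3.68 to 4.46 at 100 mpk, with a median library of 4.06, and from 3.55 to 4.28 at 30 mpk, with a median library of 3.83. With Helicon4neg it ran from 3.15 to 3.32 (median 3.28), and in vehicle from 3.29 to 3.80 (median 3.42). Libraries 2 and 5 of 100 mpk, at 4.46 and 4.30, and library 1 of 30 mpk, at 4.28, stood highest, and vehicle library 2, at 3.80, lay above libraries 1 and 4 of 100 mpk and libraries 2 and 6 of 30 mpk. All 11 Helicon4 libraries lay above all 8 Helicon4neg libraries, while the Helicon4 and vehicle groups overlapped. This mean includes the 6 genes that passed the filter only through Helicon4 libraries, which raises it there by selection.

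**Figure D2:**
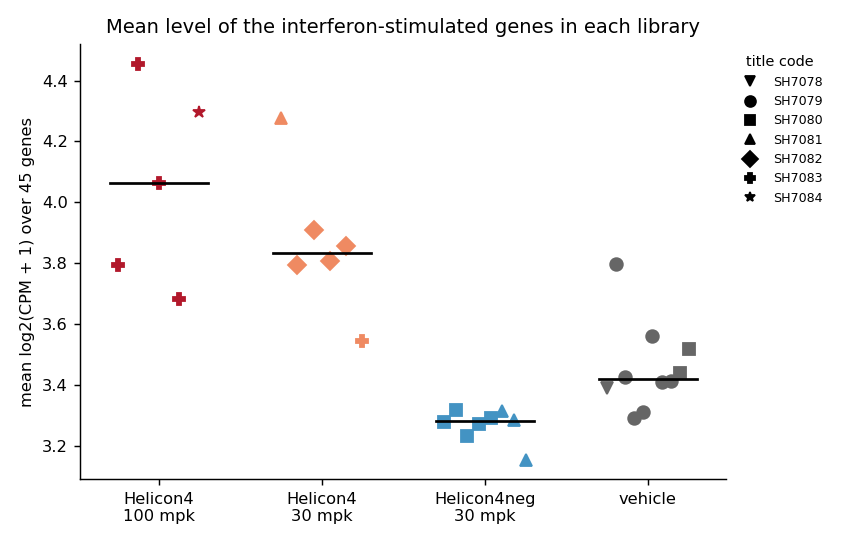
Mean of log2(CPM + 1) over the 45 genes in each library (one point each), by treatment, with a bar at the group median and the point's shape giving the code in the library's title. Helicon4 at 100 mpk spans 3.68 to 4.46, Helicon4 at 30 mpk 3.55 to 4.28, Helicon4neg 3.15 to 3.32 and vehicle 3.29 to 3.80.

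The sensors of foreign RNA rose in 5 of 6 cases at 100 mpk, beside 14.3% of all genes. DDX58 (RIG-I, at 32455705 to 32526324 on chromosome 9 of GRCh38 in GENCODE 29, as for positions below), which detects viral RNA ends and starts the interferon response, had 9.15, 24.2, 16.2, 9.18 and 18.2 CPM in the 5 libraries at 100 mpk. At 30 mpk its lowest, median and highest values were 7.95, 9.13 and 15.1 CPM, with Helicon4neg 4.26, 5.79 and 6.74 CPM, and in vehicle 4.39, 6.28 and 8.18 CPM. No library at 100 mpk overlapped with vehicle, and the spread within 100 mpk was wider than in any other group. DDX58 rose by 1.04 ± 0.17 at 100 mpk (adjusted p = 1.49e-05) and by 0.54 ± 0.16 at 30 mpk (adjusted p = 0.0203), both against vehicle. The call at 30 mpk was lost without library 1 of that group (adjusted p = 0.101).

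The other sensors follow. DHX58 (LGP2), which tunes signals from the other sensors, rose by 0.75 ± 0.13 at 100 mpk (adjusted p = 7.24e-05) and by 0.63 ± 0.12 at 30 mpk (adjusted p = 0.000628), and averaged 3.16 ± 1.17 CPM at 100 mpk, 2.81 ± 0.877 CPM at 30 mpk and 1.43 ± 0.332 CPM in vehicle (SD, n = 5, 6 and 10). IFIH1 (MDA5), which binds long double-stranded RNA, rose by 0.44 ± 0.15 at 100 mpk (adjusted p = 0.027), a call lost without library 2, 3 or 5 of that group (adjusted p up to 0.112). ADAR, which edits adenosines in double-stranded RNA and so hides it from these sensors, rose by 0.38 ± 0.11 at 100 mpk (adjusted p = 0.007), with means of 356 ± 33.4 CPM at 100 mpk and 276 ± 44.3 CPM in vehicle. ZC3HAV1 (ZAP), which binds CpG-rich viral RNA, rose by 0.41 ± 0.14 at 100 mpk (adjusted p = 0.0282), a call lost without library 2, 3 or 5 (adjusted p up to 0.148). EIF2AK2 (PKR), the kinase that halts translation on viral RNA, differed by 0.18 ± 0.12 (adjusted p = 0.255).

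Of the transcription factors, STAT2 rose and IRF1 and IRF9 did not pass. STAT2, a subunit of the complex that binds the ISRE, averaged 59.6 ± 13.5 CPM at 100 mpk, 49.3 ± 7.93 CPM at 30 mpk, 34.4 ± 5.09 CPM with Helicon4neg and 36.7 ± 5.75 CPM in vehicle (SD, n = 5, 6, 8 and 10). It rose by 0.67 ± 0.13 at 100 mpk (adjusted p = 0.000127), where no library overlapped with vehicle, and by 0.42 ± 0.12 at 30 mpk (adjusted p = 0.0187), a call lost without library 1 or 5 of 30 mpk (adjusted p up to 0.0658). IRF9, the DNA-binding subunit of the same complex, differed from vehicle by 0.32 ± 0.23 at 100 mpk (adjusted p = 0.294). Its counts are uncertain, since 48.4% of its exon bases in GENCODE 29 are shared with another gene on the same strand, AL136295.5. IRF1, a factor induced by type II interferon, differed by 0.24 ± 0.11 (adjusted p = 0.0892), and 22% of its exon bases lie under a gene on the opposite strand.

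All 4 IFIT genes rose at 100 mpk, beside 14.3% of all genes. Their products bind viral RNA that lacks the host's cap methylation or join a complex that does. The 4 IFIT genes lie within 137 kb of each other on chromosome 10. IFIT1 (89392546 to 89406486) had 16.6, 36.01, 26.1, 15.3 and 31.8 CPM at 100 mpk. At 30 mpk its lowest, median and highest values were 12.1, 14.5 and 23.9 CPM, with Helicon4neg 5.42, 6.49 and 7.91 CPM, and in vehicle 6.96, 9.58 and 12.5 CPM. All libraries at 100 mpk lay above all vehicle libraries, and the Helicon4neg libraries lay at the low end of the vehicle range or below it. IFIT1 rose by 1.26 ± 0.16 at 100 mpk (adjusted p = 5.23e-07) and by 0.65 ± 0.15 at 30 mpk (adjusted p = 0.00388).

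IFIT3, which binds IFIT1 and strengthens its grip on RNA, had 4.60, 11.03, 8.20, 4.43 and 11.7 CPM at 100 mpk. At 30 mpk its lowest, median and highest values were 3.13, 3.97 and 9.07 CPM, with Helicon4neg 0.374, 1.41 and 1.79 CPM, and in vehicle 1.40, 1.78 and 3.72 CPM. The 100 mpk and vehicle libraries did not overlap, and library 1 of 30 mpk stood far above the other 5 of its group. IFIT3 rose by 1.51 ± 0.21 at 100 mpk (adjusted p = 2e-06) and by 0.88 ± 0.20 at 30 mpk (adjusted p = 0.00279). IFIT2, a partner in the same complex, had 1.28, 3.26, 3.04, 1.51 and 3.06 CPM at 100 mpk. Its lowest, median and highest values were 0.763, 1.16 and 3.19 CPM at 30 mpk, 0.327, 0.545 and 0.759 CPM with Helicon4neg, and 0.490, 0.652 and 0.972 CPM in vehicle. Again 100 mpk did not overlap with vehicle, and IFIT2 rose by 0.97 ± 0.15 (adjusted p = 1.16e-05). The gene passed the filter only through Helicon4 libraries. At 30 mpk it rose by 0.51 ± 0.14 (adjusted p = 0.0172), a call lost without library 1 of 30 mpk (adjusted p = 0.0954). IFIT5 had the smallest change of the family, at 0.38 ± 0.08 at 100 mpk (adjusted p = 0.000938) and 0.07 ± 0.08 at 30 mpk (adjusted p = 0.571).

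**Figure D3:**
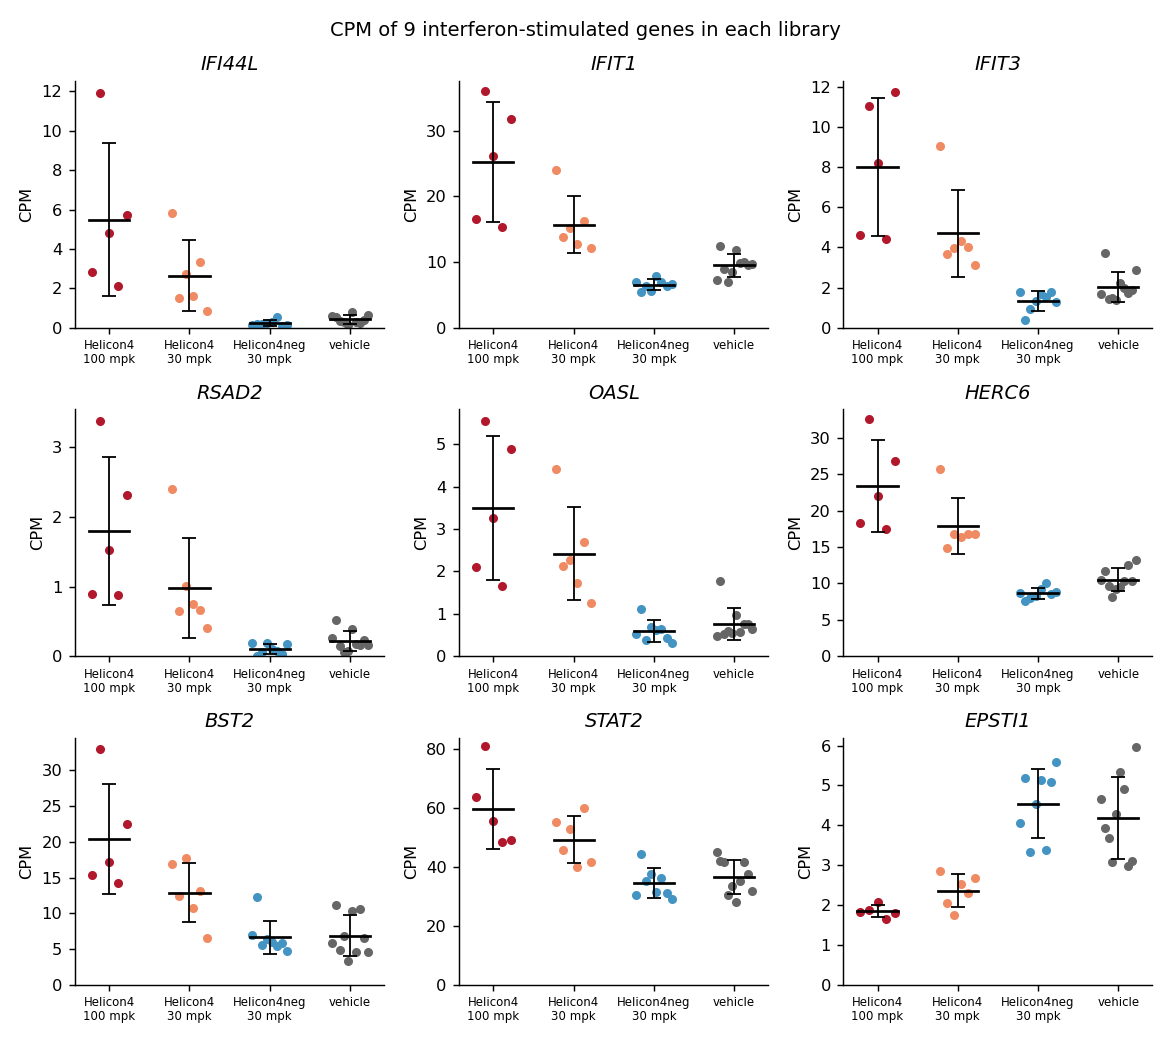
CPM of 9 of the genes in each library (points), with the group mean (bar) and SD (whiskers), by treatment; the linear y axes start at 0. IFI44L, IFIT1, IFIT3, RSAD2, HERC6, BST2 and STAT2 at 100 mpk lie above all vehicle libraries, OASL overlaps through a single vehicle library, and EPSTI1 at 100 mpk lies below all of them.

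The oligoadenylate synthetases, which make an RNA-like second messenger on binding double-stranded RNA, rose in 3 of 4 cases at 100 mpk, beside 14.3% of all genes. OASL and OAS2, among these 3, passed the filter only through Helicon4 libraries. OASL, a member that does not make this messenger and instead aids RIG-I, had 2.10, 5.56, 3.26, 1.65 and 4.89 CPM at 100 mpk. The lowest, median and highest values of the other groups were 1.26, 2.20 and 4.42 CPM at 30 mpk, 0.303, 0.576 and 1.12 CPM with Helicon4neg, and 0.469, 0.620 and 1.77 CPM in vehicle. The groups touched because the highest vehicle library, library 2, passed the lowest at 100 mpk. OASL rose by 1.29 ± 0.19 at 100 mpk (adjusted p = 3.42e-06) and by 0.93 ± 0.18 at 30 mpk (adjusted p = 0.000367). OAS2 rose by 1.33 ± 0.23 at 100 mpk (adjusted p = 6.45e-05) and averaged 3.48 ± 2.09 CPM at 100 mpk and 0.670 ± 0.433 CPM in vehicle. OAS1 rose by 0.97 ± 0.26 (adjusted p = 0.00462), while OAS3 differed by 0.40 ± 0.22 (adjusted p = 0.172).

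At 30 mpk OAS2 rose by 0.86 ± 0.22 (adjusted p = 0.0083), which was lost without library 1 of 30 mpk (adjusted p = 0.0505), and OAS1 by 0.76 ± 0.24 (adjusted p = 0.0381), which was lost in 11 of 29 fits that each left out 1 library. OAS1, OAS3 and OAS2 are neighbours on chromosome 12. MX1, a dynamin-like GTPase that traps viral particles, rose by 1.20 ± 0.28 at 100 mpk (adjusted p = 0.00141) and by 1.15 ± 0.26 at 30 mpk (adjusted p = 0.00282). It averaged 5.72 ± 3.48 CPM at 100 mpk, 5.33 ± 3.06 CPM at 30 mpk, 0.949 ± 0.304 CPM with Helicon4neg and 1.73 ± 0.951 CPM in vehicle.

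Of ISG15 and 5 proteins that act with it or resemble its enzymes, 1 of 6 passed at 100 mpk, HERC6, beside the 14.3% of all genes that rose. The log2 fold changes of all 6 were above 0, with a median of 0.26. HERC6, a ubiquitin ligase whose mouse counterpart attaches ISG15, had 18.4, 32.7, 21.997, 17.5 and 26.8 CPM at 100 mpk. In the other groups, the lowest, median and highest values were 14.9, 16.8 and 25.7 CPM at 30 mpk, 7.62, 8.57 and 10.1 CPM with Helicon4neg, and 8.15, 10.4 and 13.2 CPM in vehicle. Neither dose of Helicon4 overlapped with vehicle. HERC6 rose by 1.06 ± 0.12 at 100 mpk, with the smallest adjusted p of the 45 genes (8.54e-08), and by 0.71 ± 0.12 at 30 mpk (adjusted p = 6.3e-05).

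ISG15 itself, a ubiquitin-like protein joined to other proteins, averaged 26.5 ± 8.69 CPM at 100 mpk, 23.4 ± 7.66 CPM at 30 mpk, 14.6 ± 9.63 CPM with Helicon4neg and 17.5 ± 6.93 CPM in vehicle, and differed from vehicle by 0.59 ± 0.28 at 100 mpk (adjusted p = 0.115). Its 95% interval of 0.01 to 1.17 leaves room for a change as large as that of HERC6. HERC5, the human ISG15 ligase and a neighbour of HERC6 on chromosome 4, differed by 0.18 ± 0.13 (adjusted p = 0.298). UBE2L6, the conjugating enzyme, differed by 0.32 ± 0.16 (adjusted p = 0.126), and USP18, which removes ISG15 and damps the receptor, by 0.12 ± 0.09 (adjusted p = 0.328). TRIM25, a ligase that acts on RIG-I, differed by 0.19 ± 0.08 at 100 mpk (adjusted p = 0.0753) and rose by 0.23 ± 0.08 at 30 mpk (adjusted p = 0.0493), a call lost in 21 of 29 fits that each left out 1 library.

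The ADP-ribosyltransferases and their partner rose in 4 of 5 cases at 100 mpk, beside 14.3% of all genes. PARP9 and DTX3L form a complex that modifies histones, and they lie head to head on chromosome 3 next to PARP14. PARP14 rose by 0.66 ± 0.11 (adjusted p = 4.99e-05), PARP9 by 0.57 ± 0.12 (adjusted p = 0.000355) and DTX3L by 0.55 ± 0.13 (adjusted p = 0.00154). Their means at 100 mpk and in vehicle were 45.6 ± 7.96 and 28.4 ± 4.53 CPM for PARP14, 28.8 ± 8.29 and 18.5 ± 2.22 CPM for PARP9, and 33.7 ± 7.07 and 22.6 ± 4.05 CPM for DTX3L. The lowest libraries at 100 mpk reached into the vehicle range for each of the 3. PARP10 rose by 0.62 ± 0.21 (adjusted p = 0.0241), which was lost without library 2 or 5 of 100 mpk (adjusted p up to 0.0777), and PARP12 differed by 0.02 ± 0.10 (adjusted p = 0.89). At 30 mpk PARP10 rose by 0.74 ± 0.20 (adjusted p = 0.0114), PARP14 by 0.39 ± 0.11 (adjusted p = 0.0149) and DTX3L by 0.38 ± 0.12 (adjusted p = 0.0377). Without library 1 of 30 mpk PARP14 (adjusted p = 0.0734) and DTX3L (adjusted p = 0.161) were lost, and DTX3L was lost in 7 of 29 fits that each left out 1 library. PARP9 and DTX3L overlap at their starts, by 3.7% of the exon bases of DTX3L.

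Among the TRIM and nuclear body proteins 1 of 4 passed at 100 mpk, beside the 14.3% of all genes that rose. TRIM21, a cytosolic antibody receptor, rose by 0.32 ± 0.10 (adjusted p = 0.0186), a call lost without library 2 of 100 mpk (adjusted p = 0.0826). TRIM5, which binds retroviral capsids, differed by 0.17 ± 0.14 (adjusted p = 0.391), TRIM14, an adaptor of MAVS, by -0.10 ± 0.09 (adjusted p = 0.399), and PML, the scaffold of nuclear bodies, by -0.02 ± 0.11 (adjusted p = 0.911). At 30 mpk 0 of these 4 passed, beside the 5.86% of all genes that rose, with differences of 0.02 to 0.17. For PML the 95% interval at 100 mpk, -0.23 to 0.20, excludes changes of the size seen in the IFIT genes.

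The remaining effectors held both the largest rise and the clearest fall. IFI44L (78619922 to 78646145 on chromosome 1), an antiviral protein of poorly known action, had 2.82, 11.9, 4.83, 2.12 and 5.73 CPM at 100 mpk. Its lowest, median and highest values were 0.863, 2.17 and 5.82 CPM at 30 mpk, 0.0956, 0.181 and 0.562 CPM with Helicon4neg, and 0.134, 0.358 and 0.795 CPM in vehicle. Neither dose of Helicon4 overlapped with vehicle, and the highest library at 100 mpk, library 2, had over 5 times the CPM of the lowest. IFI44L rose by 2.02 ± 0.24 at 100 mpk (adjusted p = 9.99e-08) and by 1.24 ± 0.22 at 30 mpk (adjusted p = 0.000208). This gene reached 1 CPM in 0 vehicle and 0 Helicon4neg libraries and passed the filter only through Helicon4 libraries. Its neighbour IFI44 rose by 0.84 ± 0.20 at 100 mpk (adjusted p = 0.00191) and differed by 0.20 ± 0.19 at 30 mpk (adjusted p = 0.513).

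BST2 (tetherin), which holds budding virions at the cell surface, had 15.3, 33.1, 17.2, 14.3 and 22.4 CPM at 100 mpk. The lowest, median and highest values of the other groups were 6.57, 12.8 and 17.8 CPM at 30 mpk, 4.67, 5.91 and 12.2 CPM with Helicon4neg, and 3.34, 6.13 and 11.2 CPM in vehicle. All libraries at 100 mpk lay above vehicle, while the 30 mpk group overlapped with it. BST2 rose by 1.47 ± 0.24 at 100 mpk (adjusted p = 2.07e-05) and by 0.85 ± 0.22 at 30 mpk (adjusted p = 0.0108).

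RSAD2 (viperin), which makes a nucleotide that ends viral RNA chains, had 0.888, 3.37, 1.52, 0.883 and 2.32 CPM at 100 mpk. In the other groups, the lowest, median and highest values were 0.402, 0.705 and 2.39 CPM at 30 mpk, 0, 0.0857 and 0.192 CPM with Helicon4neg, and 0.0663, 0.170 and 0.516 CPM in vehicle. These rest on few reads, in sum 409 at 100 mpk, 278 at 30 mpk, 41 with Helicon4neg and 90 in vehicle. RSAD2 passed the filter only through Helicon4 libraries. No library at 100 mpk overlapped with vehicle, and RSAD2 rose by 1.13 ± 0.16 (adjusted p = 3.36e-06) and at 30 mpk by 0.64 ± 0.15 (adjusted p = 0.00453). CMPK2, a mitochondrial nucleotide kinase encoded beside RSAD2 on chromosome 2, rose by 0.92 ± 0.17 at 100 mpk (adjusted p = 0.000107) and by 0.68 ± 0.16 at 30 mpk (adjusted p = 0.00372).

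SAMD9, which restricts poxviruses, rose by 0.99 ± 0.19 at 100 mpk (adjusted p = 0.000197) and differed by 0.53 ± 0.18 at 30 mpk (adjusted p = 0.0559). LGALS3BP, a secreted glycoprotein that binds galectins, rose by 0.47 ± 0.12 at 100 mpk (adjusted p = 0.00365) and by 0.57 ± 0.11 at 30 mpk (adjusted p = 0.000849), with means of 98.0 ± 16.8, 104 ± 14.1 and 70.7 ± 15.3 CPM at 100 mpk, at 30 mpk and in vehicle. IFI27, a mitochondrial protein, rose by 0.62 ± 0.19 at 100 mpk (adjusted p = 0.0129), a call lost without library 2 or 5 of 100 mpk (adjusted p up to 0.0716). It also passed the filter only through Helicon4 libraries. IFI35 rose by 0.42 ± 0.14 (adjusted p = 0.0265), a call lost without library 1, 2 or 5 of 100 mpk (adjusted p up to 0.0761). IFI6, which acts at the endoplasmic reticulum, had the highest level per kb of exon among the 45 genes, at 79.7 CPM per kb at 100 mpk and 50.9 CPM per kb in vehicle, and differed by 0.58 ± 0.24 (adjusted p = 0.0646).

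EPSTI1 fell. This gene, first described as induced in breast cancer cells by stromal fibroblasts, had 1.82, 1.87, 2.08, 1.65 and 1.79 CPM at 100 mpk. Its lowest, median and highest values were 1.74, 2.41 and 2.86 CPM at 30 mpk, 3.32, 4.81 and 5.59 CPM with Helicon4neg, and 2.97, 4.11 and 5.97 CPM in vehicle. All 11 Helicon4 libraries lay below all Helicon4neg and vehicle libraries. The log2 fold change was -0.85 ± 0.13 at 100 mpk (adjusted p = 5.18e-06) and -0.61 ± 0.12 at 30 mpk (adjusted p = 0.000451), and no library left out ended either call.

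LY6E, a lipid-anchored surface protein that interferes with coronavirus entry, had 63.7, 42.1, 40.7, 47.0 and 61.3 CPM at 100 mpk. The lowest, median and highest values of the other groups were 54.1, 69.9 and 76.0 CPM at 30 mpk, 56.7, 65.3 and 136 CPM with Helicon4neg, and 52.1, 73.8 and 93.8 CPM in vehicle. The groups overlapped. The log2 fold change was -0.50 ± 0.17 at 100 mpk (adjusted p = 0.0236), a call lost without library 2, 3 or 4 of 100 mpk (adjusted p up to 0.0904), and -0.09 ± 0.16 at 30 mpk (adjusted p = 0.75).

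**Figure D4:**
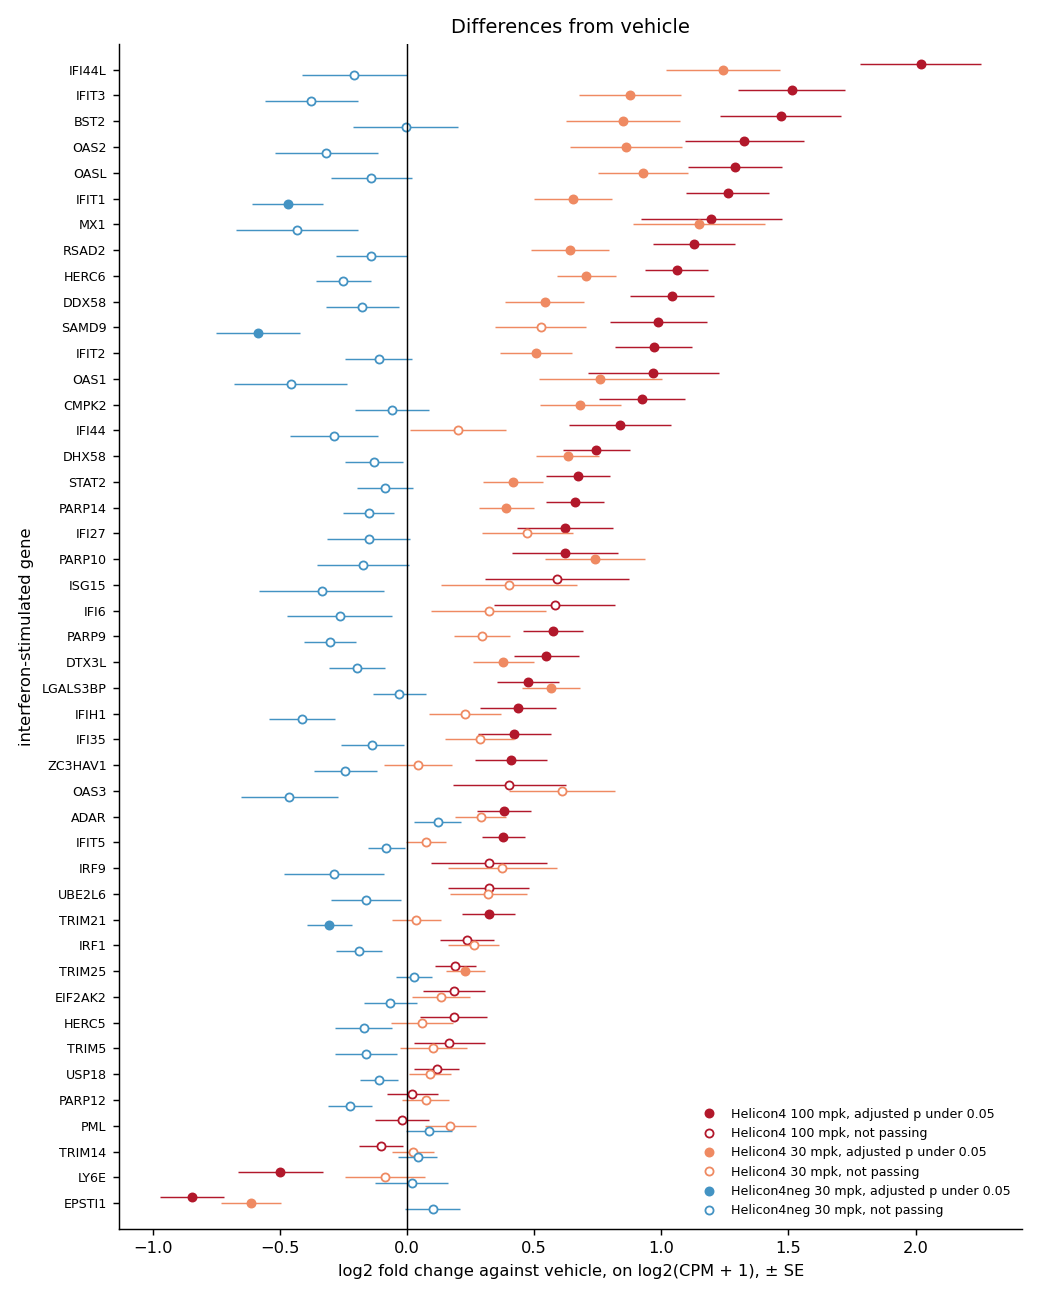
Difference of mean log2(CPM + 1) from vehicle with its standard error for each of the 45 genes, for both doses of Helicon4 and for Helicon4neg, with filled points where the adjusted p was under 0.05. The 100 mpk points run from -0.85 (EPSTI1) to 2.02 (IFI44L) and 29 are filled to the right of 0, whereas 39 of the 45 Helicon4neg points lie below 0 and 3 of them are filled. Of all genes tested, 50.6% lie above 0 with Helicon4neg.

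Helicon4neg, given at the lower dose of Helicon4, left most of these genes near the vehicle level or slightly under it. The 3 genes that fell were SAMD9 (-0.59 ± 0.16, adjusted p = 0.034), TRIM21 (-0.31 ± 0.09, adjusted p = 0.0429) and IFIT1 (-0.47 ± 0.14, adjusted p = 0.0483). The Helicon4neg and vehicle libraries overlapped for all 45 genes, a separation that held for 0.202% of all genes upward and 0.307% downward. Each of the 3 calls was lost in some of the 29 fits that left out 1 library, 8 for SAMD9, 14 for TRIM21 and 19 for IFIT1. Differences of the 45 genes lay between -0.59 and 0.12.

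At the matched dose of 30 mpk, 30 of 45 genes were higher with Helicon4 than with Helicon4neg, beside 7.78% of all genes. Another 1 was lower (EPSTI1), beside 7.31% of all genes, and 14 did not pass. The median difference of the 45 was 0.60. Among the 39 that reached 1 CPM in 5 or more vehicle libraries, 24 were higher and 1 lower. The groups did not overlap for 19 genes upward and 1 downward, beside 3.78% and 3.32% of all genes. IFIT2, OAS2, OASL, IFI44L and RSAD2 were among these 19, and they passed the filter only through Helicon4 libraries. The largest difference was that of MX1, at 1.58 ± 0.27 (95% interval 1.03 to 2.14, adjusted p = 9.7e-05), followed by IFI44L at 1.45 ± 0.23 (0.97 to 1.93, adjusted p = 4.14e-05), IFIT3 at 1.25 ± 0.21 (adjusted p = 5.87e-05) and OAS1 at 1.22 ± 0.25 (adjusted p = 0.000964). All 4 OAS genes, all 5 ADP-ribosylation genes and all 3 transcription factors passed, among them OAS3 (1.07 ± 0.22, adjusted p = 0.000781), IRF1 (0.45 ± 0.10, adjusted p = 0.00258) and IRF9 (0.66 ± 0.22, adjusted p = 0.0424). IRF9 and PARP12 were each lost in 9 of 29 fits that left out 1 library. With host markers as a covariate, 8 of the 31 calls were lost: the 3 transcription factors (adjusted p = 0.086 for IRF1, 0.167 for STAT2 and 0.227 for IRF9), PARP12, IFI35, BST2, TRIM21 and UBE2L6. The covariate itself ran from 3.01 to 3.23 with Helicon4 and from 3.23 to 3.51 with Helicon4neg. Its share of a difference and that of the compound cannot be told apart in this fit. With the title code as a block, 16 were lost, among them the 3 transcription factors, all 5 ADP-ribosylation genes and EPSTI1. Over all genes the calls went from 2018 to 1454 with the covariate and to 184 with the block.

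For ISG15 the difference between Helicon4 and Helicon4neg at 30 mpk was 0.74 ± 0.28, with a 95% interval of 0.17 to 1.31 (adjusted p = 0.0743), so the compounds were not shown to differ there. The same holds for IFIT5 (0.16 ± 0.08, interval -0.01 to 0.32) and PML (0.08 ± 0.10, interval -0.13 to 0.30). EPSTI1 differed by -0.72 ± 0.12 (interval -0.97 to -0.46, adjusted p = 9.82e-05). Helicon4 at 100 mpk against the same Helicon4neg libraries, at unequal doses, gave 35 genes higher and 2 lower, with a median of 0.79. The shares of all genes were 17% and 17.7%. Among the 39 that reached 1 CPM in 5 or more vehicle libraries, 29 were higher and 2 lower. The groups did not overlap for 24 genes upward and 1 downward, beside 7.26% and 7.31% of all genes. These 24 again held IFIT2, OAS2, OASL, IFI44L and RSAD2, which passed the filter only through Helicon4 libraries. IFI44L stood at 2.23 ± 0.25 (adjusted p = 3.27e-08). These comparisons share the Helicon4neg libraries, and those above share the vehicle libraries, so their counts are not independent of each other.

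Between the doses of Helicon4, 0 of 45 genes passed, beside 1.74% of all genes upward and 1.86% downward. Mean log2 levels were higher at 100 mpk than at 30 mpk for 34 of the 45, with a median difference of 0.19. Over all genes 51.5% were higher, with a median of 0.007. The dose groups overlapped for all 45, beside 2.21% of all genes upward and 1.71% downward that did not. With unadjusted p under 0.05 there were 16 of the 45, beside 17.3% of all genes. Tests on recovered reads called 1 of the 45 with edgeR, beside 457 of all 13373 genes, and 3 with DESeq2, beside 750. The largest differences were those of IFI44L (0.78 ± 0.26, 95% interval 0.24 to 1.32, adjusted p = 0.0975), IFIT3 (0.64 ± 0.23, 0.16 to 1.11, adjusted p = 0.133) and IFI44 (0.64 ± 0.22, 0.19 to 1.09, adjusted p = 0.109). IFIT1 came nearest to the threshold (0.61 ± 0.18, adjusted p = 0.0532). MX1 (0.05 ± 0.31, -0.58 to 0.67), DHX58 (0.11 ± 0.15, -0.19 to 0.41) and OAS3 (-0.21 ± 0.25, -0.71 to 0.29) had intervals that span 0. Without library 1 of 100 mpk 7 genes passed, and without library 1 of 30 mpk 5 did. The shares of all genes that passed in these fits are not given here.

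Library titles carry codes whose meaning the labels do not give, and vehicle and Helicon4 never shared a code. In code SH7081, the 1 library of Helicon4 at 30 mpk was higher than the mean of the 3 Helicon4neg libraries for 43 of 45 genes, with a median difference of 0.92, for example by 1.70 for IFIT1 (23.9 CPM against 6.34 to 7.01 CPM) and 2.46 for IFI44L (5.82 CPM against 0.0956 to 0.562 CPM). That library is library 1, the highest of its group for the set as a whole. In code SH7083, the 4 libraries at 100 mpk were higher in the mean than the 1 library at 30 mpk for 36 of 45 genes, with a median difference of 0.37. In code SH7080, the 5 Helicon4neg libraries were higher in the mean than the 2 vehicle libraries for 11 of 45 genes, with a median difference of -0.13. With the code as a block, Helicon4 reaches vehicle only through these single libraries: 9 genes passed at 100 mpk against vehicle (DHX58, OAS2, IFIT1, IFIT2, BST2, RSAD2, OASL, IFI44L and IFI27, all higher), 1 at 30 mpk against vehicle (OASL) and 15 at 30 mpk against Helicon4neg, while the median log2 fold changes were 1.22, 0.69 and 0.92. Of the 9, OAS2, IFIT2, RSAD2, OASL, IFI44L and IFI27 had passed the filter only through Helicon4 libraries and so had to be higher there. That leaves DHX58, IFIT1 and BST2 at 100 mpk and none at 30 mpk. OAS2, IFIT2, RSAD2, OASL, IFI44L and IFI27 were also among the 15 at 30 mpk against Helicon4neg. Over all genes the block left 141 calls at 100 mpk and 74 at 30 mpk against vehicle, and 184 at 30 mpk against Helicon4neg. EPSTI1 was among the calls lost against vehicle at both doses, with log2 fold changes of -0.89 and -0.52 in that fit. IFIH1 at -0.10 (adjusted p = 0.945) and LY6E at 0.34 (adjusted p = 0.838) turned sign at 100 mpk in that fit.

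Some human genes used as markers of host cell types differed between groups, in both directions. Whether their reads came from mouse or tumor cells was not tested. The CPM summed over the 6 fibroblast markers in the table ran from 104 to 166 at 100 mpk, 135 to 189 at 30 mpk, 219 to 303 with Helicon4neg and 180 to 275 in vehicle, with COL1A1 and PDGFRA higher and BGN, MMP2 and PDGFRB lower at 100 mpk against vehicle. The other 6 fibroblast markers listed are not analysed here. Both endothelial markers in the table, CLDN5 and EGFL7, were lower at 100 mpk, and their summed CPM ran from 23.9 to 39.2 at 100 mpk, 31.3 to 52.7 at 30 mpk, 40.0 to 146 with Helicon4neg and 38.7 to 94.2 in vehicle. Of the 6 leukocyte markers, ITGAM was higher (0.33 ± 0.10, adjusted p = 0.0121) and CTSS lower (-0.77 ± 0.15, adjusted p = 0.000157) at 100 mpk against vehicle. The mean log2 level of the host markers ran from 2.89 to 3.20 at 100 mpk, 3.01 to 3.23 at 30 mpk, 3.23 to 3.51 with Helicon4neg and 3.10 to 3.41 in vehicle. It thus followed treatment in part, and as a covariate it cannot be told apart from the compound. With this covariate, 27 of the 45 genes passed at 100 mpk and 25 at 30 mpk against vehicle, with medians of 0.70 and 0.44. Over all genes, the covariate took the calls from 4043 to 2731 at 100 mpk and from 1481 to 2201 at 30 mpk. Of the 31 calls among the 45 at 100 mpk, 6 were lost (IFI35, ZC3HAV1, TRIM21, IFIT5, PARP10 and LY6E, the last with adjusted p = 0.109). Of the 21 at 30 mpk, 2 were lost (TRIM25 and STAT2). Against Helicon4neg, 13 of 37 were lost at 100 mpk and 8 of 31 at 30 mpk. There the calls over all genes went from 4649 to 2061 at 100 mpk and from 2018 to 1454 at 30 mpk. The part of host cells in the changes of single genes was not tested.

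With the 4 groups pooled, most of the genes varied together from library to library. After group means were removed, the log2 level of each gene was correlated over the 29 libraries with the mean of the other 44, which share depth and scaling. The median r was 0.62, and 17 of 45 genes reached 0.7, led by MX1 (0.94), OASL (0.93), OAS2 (0.92) and RSAD2 (0.91). At the other end were ADAR (0.14), TRIM5 (0.13), EPSTI1 (0.11) and LY6E (-0.04). The SD of the mean log2 level of the 45 genes was 0.326 at 100 mpk, 0.238 at 30 mpk, 0.0532 with Helicon4neg and 0.145 in vehicle. The Helicon4 libraries thus weigh most in these r values, which were not computed within single groups or for other genes. By position, 16 of the 45 genes fell into 6 groups of neighbours no more than 200 kb apart. Within such groups the log2 fold changes at 100 mpk ran from 0.38 to 1.51 for the 4 IFIT genes, and were 1.06 for HERC6 and 0.18 for HERC5, differences between genes that were not tested.

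Levels per kb of exon spanned a wide range. In vehicle IFI44L had 0.0410, RSAD2 0.0451, OAS2 0.107, IFIT2 0.200 and MX1 0.201 CPM per kb, the 5 lowest of the set. The highest were IFI6 (50.9), ADAR (33.01), LY6E (27.5), LGALS3BP (19.7) and ISG15 (18.6 CPM per kb). At 100 mpk IFI44L reached 0.536 CPM per kb, still under the vehicle level of IFIT1 (2.06 CPM per kb).

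Of 49 pathway genes listed beside the 45, 34 were in the table, and 0 of the 10 interferon genes were, so ligands are not analysed here. Of the receptors and kinases, 0 of 9 rose and 1 fell at 100 mpk against vehicle, beside 14.3% of all genes upward and 15.9% downward. The receptor subunits IFNAR1 (0.20 ± 0.11, adjusted p = 0.166) and IFNAR2 (0.15 ± 0.07, adjusted p = 0.105) and the kinase JAK1 (0.17 ± 0.10, adjusted p = 0.204) did not pass, and TYK2 fell (-0.24 ± 0.09, adjusted p = 0.0495). Of the 5 signal transducers and factors, 2 rose and 1 fell. STAT3, a transducer of interleukin signals, rose by 0.51 ± 0.09 (adjusted p = 7.35e-05) and IRF2, a repressor of interferon targets, by 0.32 ± 0.11 (adjusted p = 0.0276). IRF3, which switches on the interferon genes, differed by -0.41 ± 0.18 (adjusted p = 0.0777), and the corepressor IRF2BP1 fell (-0.42 ± 0.14, adjusted p = 0.0256).

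Of 11 upstream sensors and adaptors in the table, 4 rose and 1 fell at 100 mpk. TMEM173 (STING), the adaptor of cytosolic DNA sensing, rose by 0.49 ± 0.09 (adjusted p = 0.000124), IFI16, a DNA sensor, by 0.51 ± 0.12 (adjusted p = 0.00118) and TANK, an adaptor of TBK1, by 0.47 ± 0.13 (adjusted p = 0.00602). MAVS, the adaptor of RIG-I and MDA5, differed by 0.09 ± 0.09 (adjusted p = 0.474) and the kinase TBK1 by -0.30 ± 0.13 (adjusted p = 0.0855), while TICAM1, the adaptor of TLR3, fell (-0.32 ± 0.12, adjusted p = 0.042). CGAS, ZBP1, AIM2 and TREX1 are not analysed here. Of 9 negative regulators 1 rose, PTPN6 (0.27 ± 0.09, adjusted p = 0.0221). Of the 34 in the table, against vehicle at 100 mpk, 7 were higher and 3 lower, beside 14.3% of all genes upward and 15.9% downward, and at 30 mpk 5 were higher and 0 lower, beside 5.86% and 5.22%.

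**Figure D5:**
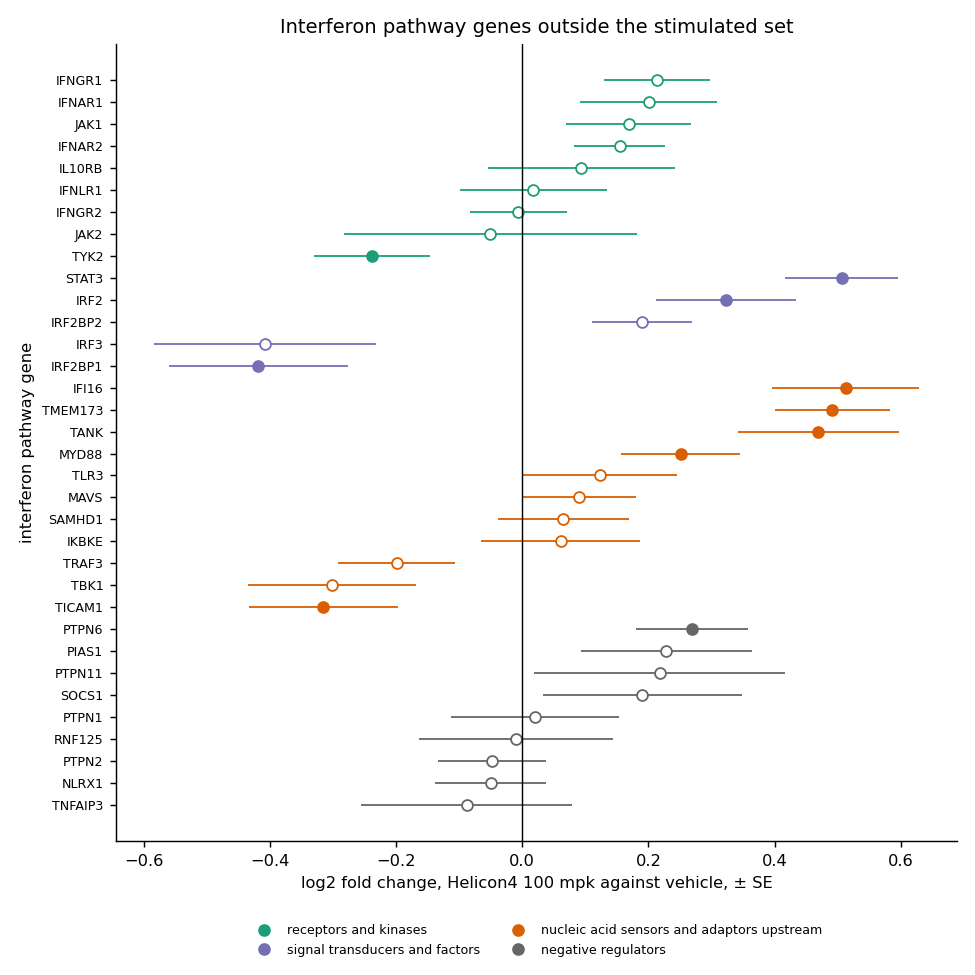
Difference of mean log2(CPM + 1) between Helicon4 at 100 mpk and vehicle, with its standard error, for the 34 interferon pathway genes outside the stimulated set, coloured by role and filled where the adjusted p was under 0.05. The filled points run from -0.42 (IRF2BP1) to 0.51 (IFI16), and 1 of the 9 receptors and kinases is filled.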

How the data were processed

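The authors' deposited table gives one signal per gene and library, read counts divided by a scaled library size, so that columns sum to 0.921 to 1.26 M rather than to exactly 1 M. Per the submitters' processing notes, the reads were handled with STAR 2.7.7a on GRCh38, with Trimmomatic 0.39, with featureCounts from the Subread package (2.4.2) and with edgeR 4.0.2, in roles the notes do not state. The gene annotation and strand setting are not given in the sources used here, and the labels name both NEBNext Ultra II Directional and TruSeq stranded mRNA kits. Whole reads were recovered from the steps of the values, of which 100% were whole within 0.05 reads. 0 columns were left without a sample.

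After a filter (1 CPM or more in 5 or more libraries), limma 3.58.1 under R 4.3.3 was run on the log2 of CPM plus a pseudocount of 1 (mean trend, robust, two-sided, 1 fit over the 4 groups, 6 comparisons), with Benjamini-Hochberg adjustment and a threshold of 0.05. On simulated data for 100 mpk against vehicle (13373 genes), 83.6% of genes changed 1.5-fold, 91% changed 2-fold and 98.5% changed 4-fold were called, with 11 unchanged genes called. Alternatives were a pseudocount of 0.1, no filter, a filter of 5 CPM, TMM factors, edgeR 4.0.16 and DESeq2 1.42.0 on recovered reads, only the groups compared, blocks by replicate number or title code, a covariate of host markers, and leaving out libraries. Some genes of the pathway and interferon lists are not reported here and are left out of the counts of those lists. The members and lists were chosen with earlier results of these data known. Values by library are given for the 10 genes with the smallest adjusted p at 100 mpk against vehicle and for those that fell there, and the rest are summarised by role. Figures and tables were made with Python 3.11.15.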

Additional observations from a re-analysis of the deposited data

Results flagged for a closer look

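For 31 of 180 sets of values, each 1 gene in 1 group, the highest or lowest library stood apart from the others of its group by Dixon's test at the 95% level, and chance alone gives such a gap in about 1 in 20 sets. The genes are not independent, since a library that is high for one tends to be high for others.

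Library 1 of Helicon4 at 30 mpk was the high one for 9 genes. It had 15.1 CPM of DDX58, 23.9 of IFIT1, 9.07 of IFIT3, 5.26 of OAS2, 25.7 of HERC6, 29.6 of PARP9, 39.3 of DTX3L, 4.71 of CMPK2 and 2.39 CPM of RSAD2. Library 6 of the same group was low for IFI6, at 28.9 CPM, and for LGALS3BP, at 75.8 CPM. Library 2 of Helicon4 at 100 mpk was high for IRF9, at 8.08 CPM.

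Library 2 of Helicon4neg was high for 8 genes, with 1.12 CPM of OASL, 37.6 of ISG15, 108 of TRIM25, 12.5 of TRIM21, 82.0 of IFI6, 17.0 of IFI35, 12.2 of BST2 and 136 CPM of LY6E. It was low for EIF2AK2, at 53.9 CPM, and TRIM5, at 11.4 CPM. Among the other Helicon4neg libraries, library 8 was low for DHX58 (0.784 CPM), library 4 high for PML (42.8 CPM) and library 6 high for IFI44L (0.562 CPM).

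Vehicle library 2 was high for IRF1 (11.1 CPM), OASL (1.77 CPM), UBE2L6 (2.10 CPM), PARP12 (26.8 CPM) and IFI27 (2.03 CPM), and vehicle library 6 was high for IFI44 (21.7 CPM).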

How the results depend on the processing

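The counts of genes passing were 31 and 21 for Helicon4 at 100 and 30 mpk against vehicle, 3 for Helicon4neg against vehicle, 31 and 37 for Helicon4 at 30 and 100 mpk against Helicon4neg, and 0 between doses. Leaving out 1 library at a time gave 23 to 34, 12 to 25, 0 to 6, 24 to 33, 30 to 39 and 0 to 7 in the same order of comparisons. Of the genes called, 24 of 31, 13 of 21, 0 of 3, 25 of 31 and 31 of 37 kept their call in each such fit that held them, with none reversed. RSAD2 was filtered out in 5 of these 29 fits and is counted as kept on the other 24. The lowest count at 30 mpk against vehicle, 12, came without library 1 of 30 mpk. The title code as a block gave 9, 1, 0, 15 and 16 for the first 5 comparisons, where over all genes it left 141, 74, 2, 184 and 189 calls, and in it IFIH1 (-0.10) and LY6E (0.34) turned sign at 100 mpk against vehicle. A filter of 5 CPM, which drops scarce genes, gave 11 for 30 mpk against vehicle and 19 for 30 mpk against Helicon4neg. DESeq2 gave 6 for Helicon4neg against vehicle, where it called 1105 of all genes, and 3 between doses, where it called 750. Between doses edgeR gave 1, the host marker covariate 1, and leaving out Helicon4neg library 2 with vehicle library 6 gave 2. The calls over all genes were 457, 284 and 1051 in the same order. The causes were not tested.

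The main fit did not treat replicate numbers as pairs. Over 35 pairs of the same number, deviations from group means correlated between -0.701 and 0.519, with 15 above 0.1. Pairs of unlike numbers were not compared, so whether the numbers pair libraries was not tested. With the replicate block, the counts were 27, 17, 1, 27, 35 and 0. Depth limits RSAD2, IFI44L and other genes under 1 CPM in vehicle.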

Other observations

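Of 57 further genes known to be induced by interferon, listed outside the 45, 38 were in the table. Against vehicle, 11 of the 38 rose and 0 fell at 100 mpk, beside 14.3% of all genes upward and 15.9% downward. At 30 mpk 6 rose and 0 fell, beside 5.86% and 5.22%. With Helicon4neg 0 rose and 2 fell, beside 2.21% and 2.62%. The median log2 fold changes were 0.10, 0.08 and -0.16 in the same order. HELZ2, a helicase, had the largest change, 1.33 ± 0.23 at 100 mpk (limma adjusted p = 4e-05) and 1.31 ± 0.21 at 30 mpk (adjusted p = 4.92e-05), with 7.36 ± 3.20 CPM at 100 mpk, 7.37 ± 3.56 CPM at 30 mpk and 2.24 ± 0.867 CPM in vehicle. TRIM38, a regulator of nucleic acid sensing, rose by 0.62 ± 0.08 at 100 mpk (adjusted p = 2.54e-07), with 31.6 ± 3.64 CPM at 100 mpk and 20.2 ± 1.60 CPM in vehicle. NMI, a partner of STAT proteins, rose by 0.62 ± 0.09 at 100 mpk (adjusted p = 6.66e-06) and was the 1 gene of the list that was higher at 100 mpk than at 30 mpk (0.54 ± 0.10, adjusted p = 0.00208). DDX60, a helicase (0.72 ± 0.17, adjusted p = 0.00176), TNFSF10, the death ligand TRAIL (0.57 ± 0.15, adjusted p = 0.00353), and the entry inhibitors IFITM2 (0.58 ± 0.16, adjusted p = 0.00567) and IFITM1 (0.48 ± 0.14, adjusted p = 0.00953) also rose at 100 mpk.

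Of the genes of antigen presentation, B2M differed at 100 mpk by 0.20 ± 0.11 (adjusted p = 0.161) and TAP1 by 0.11 ± 0.16 (adjusted p = 0.646). With Helicon4neg, TDRD7 (-0.33 ± 0.07, adjusted p = 0.00535) and MLKL (-0.44 ± 0.09, adjusted p = 0.00539) fell against vehicle.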
